A study of Mus musculus with 16 samples.

Results

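Immunoglobulin chains are encoded in pieces, and the gene segments and light chain constant genes described here are those whose names in the deposited gene tables begin with Ighv, Ighd, Ighj, Igkv, Igkj, Igkc, Iglv, Iglj or Iglc. They number 252 of the 38918 features in the tables. They were chosen by name and not by a cut on their values, with earlier results of these data known. There were 114 heavy chain variable (Ighv), 20 heavy chain diversity (Ighd) and 4 heavy chain joining (Ighj) segments, 104 kappa variable (Igkv) and 5 kappa joining (Igkj) segments, the kappa constant gene Igkc, 3 lambda variable (Iglv) segments and 1 lambda constant gene, Iglc2. No feature name begins with Iglj.

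The cells were mouse pre-B cells from Blnk-/- knockout animals, which lack the signalling adaptor BLNK, and all 4 groups carried a retroviral BLNK-ERt2 construct that puts the adaptor back as a tamoxifen-dependent fusion. The groups were control cells and cells taken 0.5, 1.5 or 5 h after stimulation began, and the study's stated aim was to find genes regulated by signals of the pre-B cell receptor. Each group is 4 sequencing lanes that share 1 index, so it was read as 1 library, and no p-value across conditions can be given. Nothing in the labels says whether the cells are 1 clone, how many animals they came from or whether the control received the vehicle of the drug. Library totals ran from 30746189 exon reads at 5 h to 34533362 in the control.

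A heavy chain gene is assembled in the early B cell by joining a D to a J segment and then a V segment to both, and the resulting exon is spliced to the mu constant exons of Ighm. A light chain gene is assembled later from 1 V and 1 J segment, at the kappa locus first and then, if needed, at the lambda locus. The enzymes RAG1 and RAG2 cut the DNA, and the pre-B cell receptor, a mu chain paired with a surrogate light chain, is the checkpoint between both steps. V segments can also be transcribed before they are joined. Counts per segment do not tell a joined from an unjoined copy, and in bulk RNA fewer cells that carry a segment and less RNA per cell cannot be told apart.

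The sequences that matter most for reading the counts are those of the heavy chain V segments with the most reads, because they resemble each other. All sequences shown are the sense strand of the coding segments in GENCODE vM21 (GRCm38, the mm10 build of the tables). The first set gives the last 120 coding bases of 6 Ighv5 segments, with capitals where the base differs from Ighv5-12 in the alignment. Ighv5-12 lies at chr12:113702124-113702243, Ighv5-6 at chr12:113625506-113625625, Ighv5-9-1 at chr12:113736111-113736230, Ighv5-4 at chr12:113597446-113597565, Ighv5-9 at chr12:113661769-113661888 and Ighv5-2 at chr12:113578504-113578623, all on the minus strand.
Ighv5-12: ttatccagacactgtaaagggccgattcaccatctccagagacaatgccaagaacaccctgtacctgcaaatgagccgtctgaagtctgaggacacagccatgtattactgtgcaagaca
Ighv5-6: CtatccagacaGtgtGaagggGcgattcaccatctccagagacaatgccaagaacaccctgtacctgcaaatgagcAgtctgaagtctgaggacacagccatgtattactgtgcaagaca
Ighv5-9-1: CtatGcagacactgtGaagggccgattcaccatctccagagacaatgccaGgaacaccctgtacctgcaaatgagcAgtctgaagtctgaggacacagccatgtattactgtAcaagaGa
Ighv5-4: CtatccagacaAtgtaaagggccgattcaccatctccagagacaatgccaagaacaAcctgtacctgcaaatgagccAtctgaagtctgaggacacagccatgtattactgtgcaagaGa
Ighv5-9: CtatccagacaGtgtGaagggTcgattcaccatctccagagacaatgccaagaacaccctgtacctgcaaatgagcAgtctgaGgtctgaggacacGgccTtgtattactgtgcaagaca
Ighv5-2: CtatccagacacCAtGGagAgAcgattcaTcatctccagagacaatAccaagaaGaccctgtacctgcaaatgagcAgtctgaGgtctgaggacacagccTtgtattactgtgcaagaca

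These 120 bases differ from Ighv5-12 at 5 bases in Ighv5-6, 5 in Ighv5-4, 7 in Ighv5-9-1, 8 in Ighv5-9 and 13 in Ighv5-2. Over the whole coding segment, Ighv5-6 and Ighv5-4 were 95.5% identical, with 16 differing bases of 353. Ighv5-2 stood furthest from the other 5, with Ighv5-6 as its nearest segment at 86.4% identity. The same stretch of Ighv3-1 (chr12:113964388-113964507, minus strand), the most read segment outside this family, is shown for contrast.
Ighv3-1: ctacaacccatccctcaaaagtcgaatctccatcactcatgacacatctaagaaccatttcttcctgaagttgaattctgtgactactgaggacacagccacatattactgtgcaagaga

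The 4 heavy chain J segments are shown whole because only the last of them carried reads. Capitals mark the first TGGGG of each, which encodes the conserved tryptophan and the start of the glycine that follows it. Ighj1 lies at chr12:113429781-113429833, Ighj2 at chr12:113429468-113429515, Ighj3 at chr12:113429085-113429132 and Ighj4 at chr12:113428514-113428567, all on the minus strand.
Ighj1: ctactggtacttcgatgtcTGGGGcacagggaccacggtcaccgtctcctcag
Ighj2: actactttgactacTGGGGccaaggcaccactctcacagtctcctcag
Ighj3: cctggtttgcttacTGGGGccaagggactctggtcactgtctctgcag
Ighj4: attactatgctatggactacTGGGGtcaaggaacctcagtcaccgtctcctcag

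The light chain members that the results turn on are Igkv14-111, given by its last 120 coding bases (chr6:68256750-68256869, plus strand), and Igkc, given by its first 120 (chr6:70726435-70726554, plus strand).
Igkv14-111: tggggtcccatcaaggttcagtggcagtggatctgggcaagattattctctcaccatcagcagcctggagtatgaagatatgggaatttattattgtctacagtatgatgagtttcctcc
Igkc: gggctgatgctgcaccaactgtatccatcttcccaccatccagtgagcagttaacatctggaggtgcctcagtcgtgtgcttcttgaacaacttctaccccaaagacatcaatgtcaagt

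Reads on the members were few in kind and mostly on the heavy chain. They made up 0.0819% of all exon reads in control cells, 0.0786% at 0.5 h, 0.0739% at 1.5 h and 0.0694% at 5 h. Of the 252 members, 223 have an exon model in the tables and 29 have none, namely the 20 Ighd, 4 Ighj and 5 Igkj segments, whose exon reads are 0 for that reason. An exon read was found for 142 members and none for 81 members with an exon model. For those 81 a count of 0 allows up to 3 counts in a library, which is 0.0869 CPM in the control and 0.0976 CPM at 5 h. CPM here is exon reads of a feature per 1000000 exon reads of the library.

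In each library 16 members reached 1 CPM. They were 11 of 114 Ighv, 3 of 104 Igkv, Igkc and 1 of 3 Iglv, the lambda segment Iglv3. The threshold fell between Iglv3, whose highest value was 1.92 CPM, and Igkv1-110, whose highest value was 0.945 CPM. At 5 CPM or more in some library there were 10 members, 8 of them Ighv, with Igkv14-111 and Igkc.

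**Figure D1:**
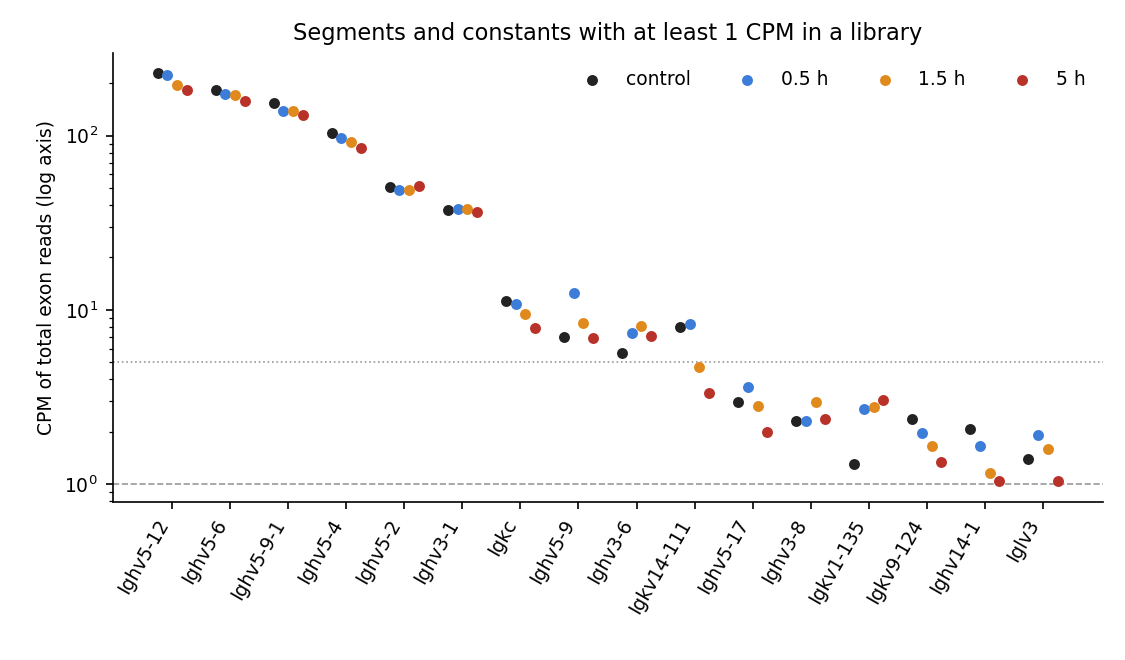
CPM of total exon reads (log axis) for the 16 members with at least 1 CPM, 1 point per library, with lines at 1 CPM (dashed) and 5 CPM (dotted). The 6 leading heavy chain segments lie between 36.7 and 228 CPM, and Igkv14-111 goes from 8.02 CPM in the control to 3.32 CPM at 5 h.

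The heavy chain reads came mostly from the Ighv5 family, a group of V segments near the D segments. Its 9 members summed to 730 CPM in control cells and, in order of time, to 695, 656 and 617 CPM after stimulation. That was 92.7, 92.4, 92.2 and 92.0% of all Ighv exon reads in the same order. The Ighv3 family held 5.80% in the control and 6.89% at 5 h, and the 55 segments of the Ighv1 family, the largest by number, held 0.787% and 0.563%. In uniquely placed reads alone the Ighv5 family held 86.5% in the control and 85.0% at 5 h, and the Ighv3 family 12.1% and 14.1%.

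Ighv5-12 was the most abundant member, at 228 CPM in the control, 222 at 0.5 h, 194 at 1.5 h and 183 at 5 h. Ighv5-6 gave 183, 173, 171 and 158 CPM in the same order. Ighv5-9-1 gave 155, 138, 139 and 131 CPM. In all 3 segments the control library was the highest and the 5 h library the lowest.

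Ighv5-4 gave 103, 96.8, 92.0 and 85.1 CPM over the same 4 libraries. Ighv5-2 gave 50.6, 48.6, 48.7 and 51.1 CPM, with no order in time. Ighv3-1 gave 37.7, 37.7, 38.2 and 36.7 CPM and was as level as Ighv5-2. Between these and the next V segments there was a gap in total reads: Ighv5-9 had a mean of 8.71 CPM and Ighv3-6 of 7.04 CPM over the 4 libraries. In uniquely placed reads, scaled to the unique exon reads of each library, Ighv5-4 had a mean of 9.25 CPM. Ighv3-1 had 41.4 CPM and Ighv3-6 had 7.62 CPM on that scale. The place of Ighv5-4 above the gap thus rests on reads that fit several segments.

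Read usage among the Ighv segments was narrow in every library. Ighv5-12 alone held 29.0% of Ighv exon reads in the control (28.5 to 29.5%, exact Clopper-Pearson 95% interval) and 27.3% at 5 h (26.6 to 27.9%). Of uniquely placed Ighv reads it held 38.3% in the control and 35.0% at 5 h, so its share depends on read placement. In each library 5 segments were enough for 90% of the reads. The inverse Simpson index is the number of equally used segments that would give the same concentration. It was 4.99, 5.07, 5.13 and 5.17 in the control and at 0.5, 1.5 and 5 h. In uniquely placed reads it was 4.36, 4.34, 4.72 and 4.73 in the same order.

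The share of reads that could be placed at a single position differed widely among these segments. Uniquely placed reads were 41.2% of the exon reads of the Ighv5 family and 93.1% of those of the Ighv3 family, against 84.4% over all features. Within the Ighv5 family the share was 83.1% for Ighv5-2, 58.0% for Ighv5-12, 35.3% for Ighv5-6, 33.7% for Ighv5-9-1, 8.24% for Ighv5-4, 6.68% for Ighv5-9 and 4.50% for Ighv5-17. The segment with the highest share, Ighv5-2, is also the one whose printed bases differ most from Ighv5-12. Ighv5-17, not printed, differs from Ighv5-12 at 10 of its last 120 coding bases and had the lowest share. Likeness and share thus did not go together in every segment. The levels in this family depend on how reads that fit several segments were shared out. The dependence is largest for Ighv5-4, Ighv5-9 and Ighv5-17, so their order is uncertain. In uniquely placed reads the mean was 142 CPM for Ighv5-12, 71.7 for Ighv5-6, 56.2 for Ighv5-9-1 and 49.0 for Ighv5-2. In all exon reads the means were 207, 171, 141 and 49.8 CPM in the same order, so the distances between these segments depend on placement too.

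**Figure D2:**
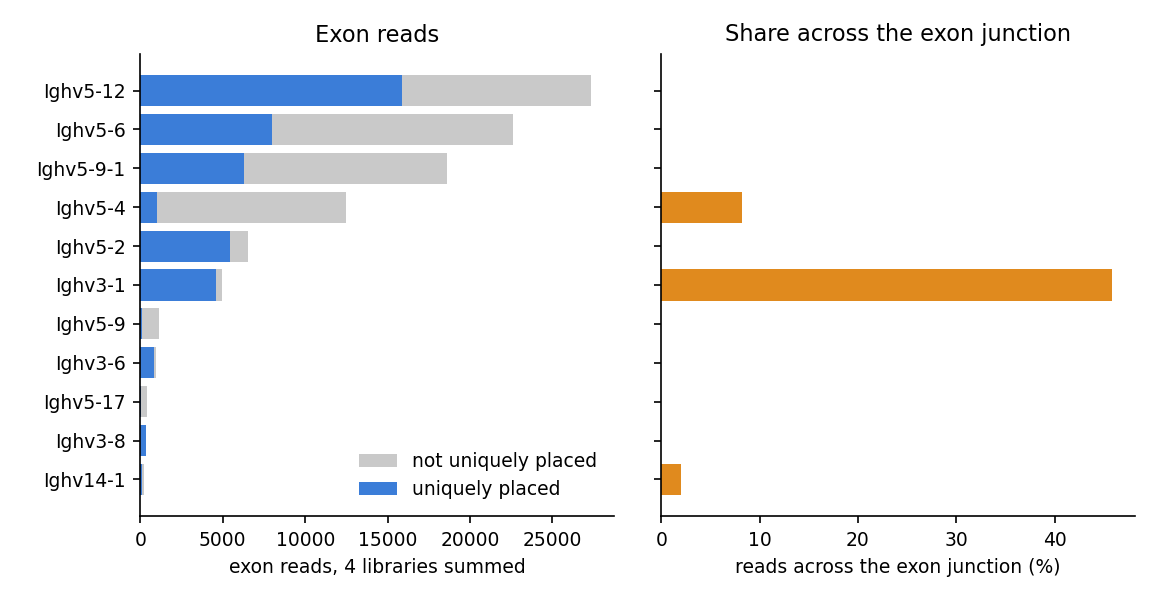
Left, exon reads of the 11 leading heavy chain V segments summed over 4 libraries, with the uniquely placed part in blue. Right, the percent of each segment's exon reads that cross an exon junction, which is 45.9% for Ighv3-1 and 8.23% for Ighv5-4 and at or near 0 for the other Ighv5 segments.

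Reads across the junction between the leader exon and the V exon were unevenly spread as well. Ighv3-1 had 2272 such reads of 4953, or 45.9%. Ighv5-4 had 1026 of 12463, and its uniquely placed reads numbered 1027 in all. Ighv5-12 and Ighv5-6 had 1 each, of 27368 and 22627 reads, and Ighv5-9-1 and Ighv5-2 had none, of 18598 and 6554. The median coverage listed for each lane was 0 in all 16 lanes for Ighv5-2 and from 25.5 to 47.5 for Ighv3-1.

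The less abundant heavy chain V segments were mixed in course. Ighv5-9 gave 7.01 CPM in the control, 12.6 at 0.5 h, 8.43 at 1.5 h and 6.86 at 5 h. Its lanes at 0.5 h ran from 7.78 to 19.4 CPM, and its level at 0.5 h was 1.79-fold higher than in the control (1.53 to 2.11), from 425 total exon reads against 242. Only 24 and 14 of these were uniquely placed, and in them the ratio was 1.74 (0.865 to 3.64), an interval that includes 1. Ighv3-6 gave 5.65, 7.38, 8.06 and 7.09 CPM, and its reads were 91.4% unique. Its level was 1.43-fold higher at 1.5 h than in the control (1.18 to 1.73).

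Ighv5-17 gave 2.98 CPM in the control, 3.60 at 0.5 h, 2.82 at 1.5 h and 1.98 at 5 h. Ighv3-8 gave 2.32, 2.30, 2.97 and 2.37 CPM. Ighv14-1 gave 2.08, 1.65, 1.16 and 1.04 CPM, from 72 reads in the control and 32 at 5 h. The 55 Ighv1 segments together gave 6.2, 5.49, 3.46 and 3.77 CPM, 1.79-fold lower at 1.5 h (1.42 to 2.27) in total reads. In uniquely placed reads, 32.9% of the family's total, the same ratio was 1.25-fold lower (0.843 to 1.86).

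Nearly all heavy chain reads lay on segments close to the D segments. The 26 Ighv segments less than 500 kb from the D segments held 97.7% of all Ighv exon reads, and 9 of them reached 1 CPM. The next 500 kb, also with 26 segments, held 1.48%, among them Ighv3-6 and Ighv3-8. No segment further away reached 1 CPM in any library. The most abundant segment was not the closest: Ighv5-12 lies 175 kb from the D segments as the 10th in line, and Ighv5-2 lies 51.7 kb away as the 2nd.

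**Figure D3:**
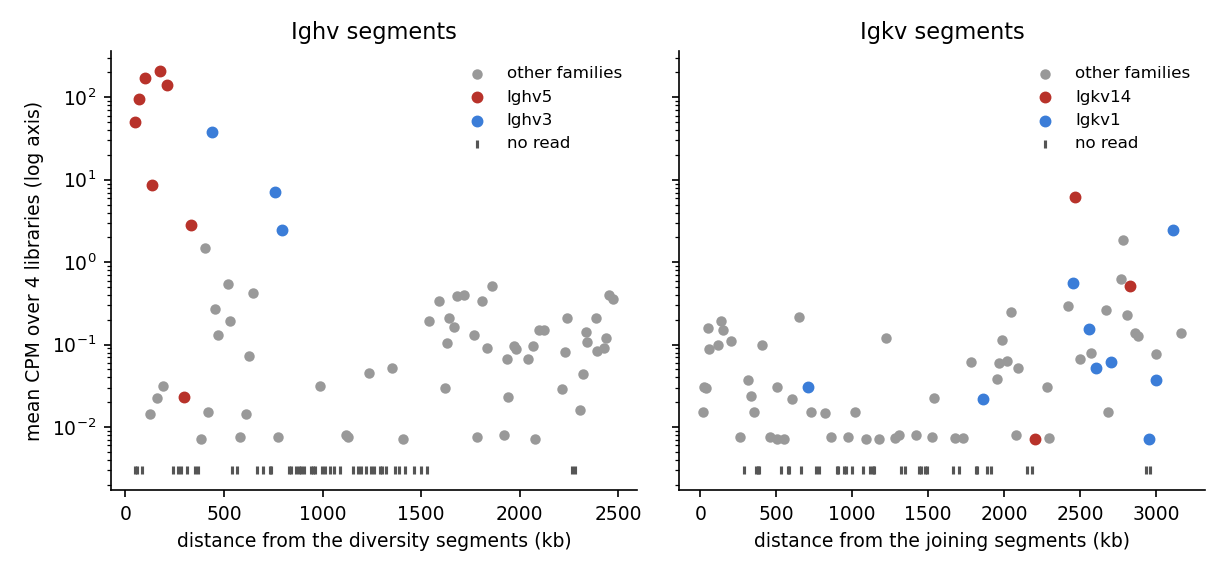
Mean CPM over the 4 libraries (log axis) of each heavy chain V segment against its distance in kb from the diversity segments, and of each kappa V segment against its distance from the joining segments, with segments without a read as ticks at the bottom. The heavy chain segments above 10 CPM all lie within 500 kb, whereas the 3 kappa segments at 1 CPM or more lie beyond 2000 kb.

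The summed Ighv level was lower at each later time. It was 787 CPM in the control, 753 at 0.5 h, 712 at 1.5 h and 671 at 5 h. It was 1.05-fold lower than the control at 0.5 h (1.03 to 1.06), 1.11-fold lower at 1.5 h (1.09 to 1.13) and 1.17-fold lower at 5 h (1.15 to 1.2). The intervals of ratios are exact Clopper-Pearson 95% intervals from the reads of both libraries, and they cover counting error only. The lanes of a library did not overlap between the control, at 782 to 795 CPM, and 5 h, at 662 to 688 CPM, but lanes are repeat readings of 1 library. In uniquely placed reads the sum was 1.15-fold lower at 5 h (1.12 to 1.18).

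Of the 2 main families, Ighv5 was lower after stimulation, and Ighv3 was highest at 1.5 h and close to the control at 5 h. With 1 library per condition this contrast cannot be tested. The Ighv5 sum was 1.18-fold lower at 5 h (1.16 to 1.21), with Ighv5-12 1.25-fold lower (1.21 to 1.29), Ighv5-6 1.16-fold lower (1.12 to 1.2) and Ighv5-9-1 1.18-fold lower (1.13 to 1.23). The Ighv3 sum was 45.7, 47.4, 49.2 and 46.2 CPM, a ratio to the control of 1.01 at 5 h (0.941 to 1.09). Ighv5-4 was 1.21-fold lower at 5 h in all reads (1.15 to 1.28) and 1.07-fold higher in its unique reads (0.895 to 1.27), so its direction is not settled. Ighv5-2 had a ratio of 1.01 at 5 h (0.943 to 1.08).

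Ighm, the mu constant gene to which an assembled V segment is spliced, was also lower after stimulation. The counts do not show whether the Ighv reads came from transcripts spliced to Ighm. It stood at 5997 CPM in the control, 5473 at 0.5 h, 4998 at 1.5 h and 4793 at 5 h, 1.25-fold lower at 5 h (1.24 to 1.26). Per length of exon model, the Ighv segments summed to 2244 RPKM in the control, 55.6% of the 4035 RPKM of Ighm. At 5 h they summed to 1911 RPKM, 59.3% of the 3226 RPKM of Ighm. Uniquely placed reads were 44.3% of the Ighv reads in the control and 45.5% at 5 h, against 100% of the Ighm reads. These percentages therefore set unlike reads side by side and are not a measured proportion of V to constant transcripts. The summed level of the 15 pre-B cell markers found was also lower, from 7691 CPM in the control to 6393 CPM at 5 h, and its part in the lower Ighv sum was not tested.

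Of the other heavy chain constant genes in the tables, Ighg1, Ighg2b, Ighg2c, Ighg3, Ighe and Igha, none reached 1 CPM in any library. Ighm was thus the only one of these heavy chain constant genes at 1 CPM or more. No feature carries the name Ighd of the delta constant gene, as all 20 features with that prefix are D segments, so delta was not examined.

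Ighj4, the J segment nearest to Ighm, was the only D or J segment with any read. Since it has no exon model, its reads are gene reads, counted over the segment itself and scaled per 1000000 gene reads. It had 661 reads in the control, 596 at 0.5 h, 494 at 1.5 h and 480 at 5 h, all uniquely placed, which is 16.1, 14.8, 12.7 and 12.9 CPM. The level was 1.27-fold lower at 1.5 h (1.13 to 1.43) and 1.24-fold lower at 5 h (1.11 to 1.4). Ighj1, Ighj2, Ighj3, the 5 Igkj segments and the 20 Ighd segments had 0 gene reads in every library. By counting alone this allows up to 0.0730 CPM of gene reads in the control and 0.0808 at 5 h. The coding segments are short, at 10 to 29 bases for Ighd, 38 to 39 for Igkj and 48 to 54 for Ighj. A count of 0 over so short a feature does not show that the segment is absent from the transcripts.

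Kappa light chain transcripts were scarce next to the heavy chain. Igkc had 390 exon reads in the control, 364 at 0.5 h, 309 at 1.5 h and 243 at 5 h, all uniquely placed, or 11.3, 10.7, 9.47 and 7.90 CPM. The control library was the highest and the 5 h library the lowest. Igkc was 1.19-fold lower than the control at 1.5 h (1.02 to 1.39) and 1.43-fold lower at 5 h (1.21 to 1.68), while the interval at 0.5 h, 0.823 to 1.10, included 1. Per length, Ighm exceeded Igkc 115-fold in the control and 132-fold at 5 h (4035 against 35.0 RPKM, and 3226 against 24.5 RPKM).

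The 104 Igkv segments together gave 17.6 CPM in the control, 19.6 at 0.5 h, 14.5 at 1.5 h and 13.1 at 5 h. The ratio to the control was 1.12 at 0.5 h (0.998 to 1.25), and the sum was 1.22-fold lower at 1.5 h (1.08 to 1.37) and 1.34-fold lower at 5 h (1.18 to 1.52). Reads were 84.2% unique. In contrast to the heavy chain, the kappa reads lay far from the J segments. The 19 Igkv segments within 500 kb held 6.62% of Igkv reads, and the 12 segments between 2000 and 2500 kb held 45.8%.

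The kappa segment with the most reads was Igkv14-111, which lies 2466 kb from the J segments. It had 277 exon reads in the control, 283 at 0.5 h, 153 at 1.5 h and 102 at 5 h, or 8.02, 8.36, 4.69 and 3.32 CPM, and 99.6% of its reads were unique. The control and 0.5 h libraries were alike, and both later libraries were lower. The level was 1.71-fold lower at 1.5 h (1.4 to 2.10) and 2.42-fold lower at 5 h (1.92 to 3.06). The lanes of the control ran from 7.12 to 9.88 CPM and those of 5 h from 3.10 to 3.65 CPM. Of its reads, 11.7% crossed an exon junction.

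Without Igkv14-111 the other 103 Igkv segments gave 9.56, 11.3, 9.78 and 9.79 CPM, with a ratio of 1.02 at 5 h (0.873 to 1.2). That sum holds segments that went opposite ways. Without Igkv1-135 as well, the remaining 102 segments gave 8.25, 8.53, 6.99 and 6.77 CPM, a ratio of 0.820 at 5 h (0.682 to 0.984) in all reads and 0.861 (0.698 to 1.06) in unique reads. Both segments were left out after their values were seen. Igkv14-111 held 45.6% of Igkv reads in the control (41.6 to 49.7%), 42.6% at 0.5 h, 32.4% at 1.5 h and 25.3% at 5 h (21.1 to 29.9%). Meanwhile the inverse Simpson index of the Igkv segments went from 4.21 in the control to 4.60, 6.17 and 7.31.

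Igkv1-135, the kappa segment that is the 103rd of 104 in distance from the J segments, was higher after stimulation. It had 45 exon reads in the control, 92 at 0.5 h, 91 at 1.5 h and 93 at 5 h, or 1.30, 2.72, 2.79 and 3.02 CPM. All 3 stimulated libraries were above the control and close to each other. The level was 2.08-fold higher at 0.5 h (1.44 to 3.05) and 2.32-fold higher at 5 h (1.61 to 3.39), and in uniquely placed reads 1.67-fold (1.10 to 2.55) and 1.89-fold higher (1.25 to 2.88). Its share of Igkv reads went from 7.41% in the control (5.46 to 9.79%) to 23.1% at 5 h (19.1 to 27.5%). Igkv9-124 gave 2.37, 1.98, 1.65 and 1.33 CPM, from 82 reads in the control and 41 at 5 h.

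**Figure D4:**
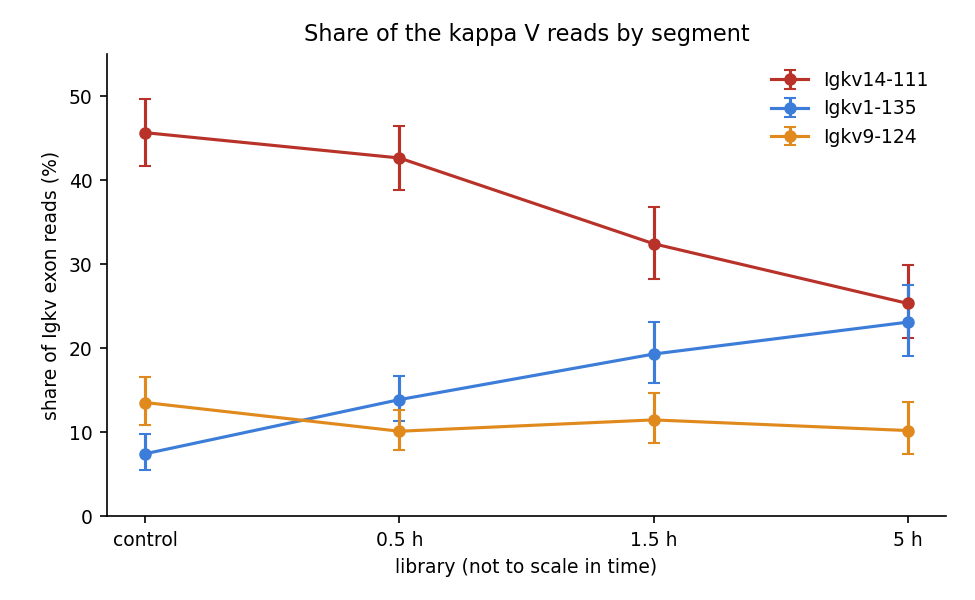
Share of all Igkv exon reads in percent held by 3 segments in each library, with exact 95% binomial intervals that cover counting error only. Igkv14-111 goes from 45.6 to 25.3%, Igkv1-135 from 7.41 to 23.1%, and Igkv9-124 from 13.5 to 10.2%.

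Lambda transcripts were few. Iglv3, a lambda V segment, had 48, 65, 52 and 32 exon reads in the control and at 0.5, 1.5 and 5 h, or 1.39, 1.92, 1.59 and 1.04 CPM. The lambda constant gene Iglc2 had 29, 26, 24 and 25 exon reads, or 0.840, 0.768, 0.735 and 0.813 CPM. The interval of its ratio to the control at 5 h ran from 0.544 to 1.71, so a change within that range was not detectable at this depth. Iglv1 had 9, 9, 16 and 6 exon reads, and Iglv2 had at most 2 in a library.

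**Figure D5:**
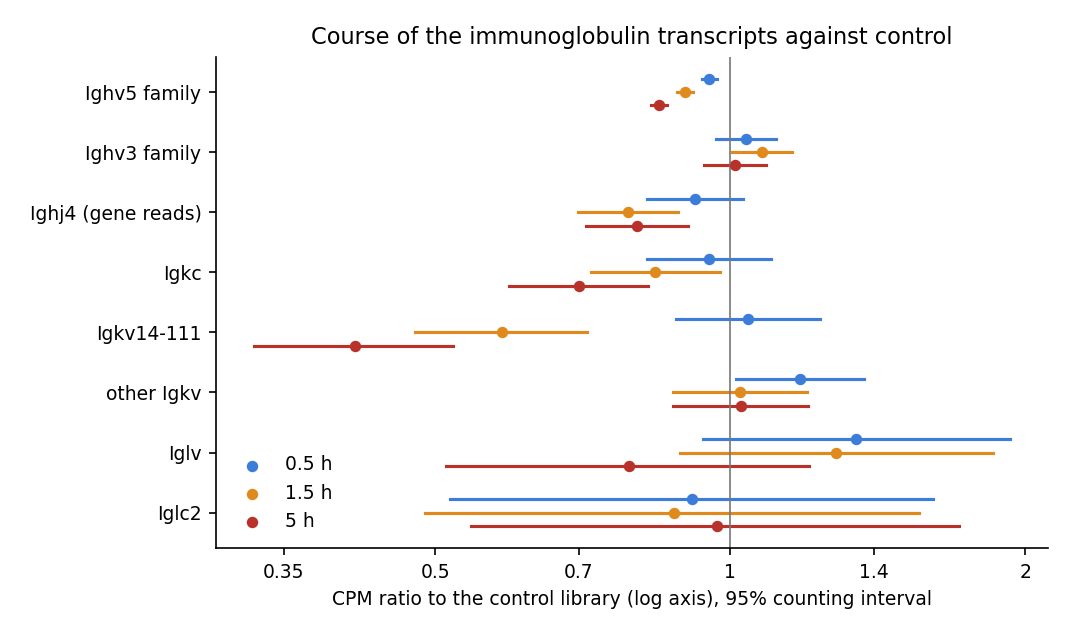
Ratio of CPM at 0.5, 1.5 and 5 h to the control (log axis) with exact 95% counting intervals, for families, sums and single members, with Ighj4 in gene reads. Igkv14-111 lies lowest, at 0.414 at 5 h, while the sum of the other 103 Igkv segments lies at 1.18, 1.02 and 1.02 and the Ighv3 family at 1.01 at 5 h.

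A member was called higher or lower when it differed at least 2-fold from the control on the log2(CPM + 1) scale and had 5 CPM or more in whichever library was higher. At 0.5 h 0 members were called higher, where 0.284% of all 9516 features at that level were, and 0 were called lower, where 0.021% were. At 1.5 h 0 members were called in either direction, against 0.641% of features higher and 0.21% lower. At 5 h 0 members were called higher, against 0.336%, and 1 of the 10 members at that level was called lower, against 0.399%. The called member was Igkv14-111, at a log2 ratio of -1.06. Without lane 3 its log2 ratio was -0.999, which ends the call, and with a pseudocount of 5 CPM no member was called. Ighv14-1, 2.0-fold lower at 5 h (1.3 to 3.14), and Igkv1-135 stayed under 5 CPM in every library and could not be called. No test was run, so the calls describe these libraries.

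The median log2 ratio of the 16 members with at least 1 CPM was -0.02 at 0.5 h, -0.08 at 1.5 h and -0.23 at 5 h. Over all features at that level the medians were -0.003, -0.014 and -0.005. At 5 h 12 of the 16 members were below 0 and 4 above, against 5590 below and 5426 above of all 11016 features at that level. The Ighv5 segments among the 16 share part of their reads, so the members are not separate readings. All 3 comparisons share the control library, so their values are not independent of each other.

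Octamer factors bind the promoters of V segments, and none of the 3 listed was called. Pou2af1, the coactivator OBF-1, stood at 574 CPM in the control and 539 CPM at 5 h. Pou2f2, which encodes OCT2, went from 14.3 CPM to 18.5 CPM at 0.5 h and 12.8 CPM at 5 h, and Pou2f1, which encodes OCT1, went from 103 to 153 CPM at 5 h. Only 22.3% of the reads of Pou2f1 were uniquely placed.

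Of 23 measured factors that act on the kappa and lambda enhancers, 22 were at the level at which a call was possible. At 1.5 h 1 was called higher, where 0.641% of all features were. At 5 h 2 were called higher and 1 lower, against 0.336% and 0.399% of all features. Irf4, which binds the light chain enhancers with an Ets partner, went from 142 CPM in the control to 445 CPM at 1.5 h and 347 CPM at 5 h, 3.12-fold and 2.44-fold higher. Ikzf3, which encodes AIOLOS, went from 115 to 232 CPM at 5 h, 2.02-fold higher (1.94 to 2.10). Spib, such an Ets partner, went from 64.0 to 26.5 CPM at 5 h, 2.41-fold lower (2.23 to 2.62). Foxo1, an activator of the Rag genes, stood at 170 CPM in the control and 100 CPM at 1.5 h and was not called. The list median at 5 h was -0.13 on the log2 scale, and 8 of 23 genes lay above 0.

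Of 15 genes of the recombinase and of end joining, 14 were at the level at which a call was possible. At 1.5 h Dclre1c was called higher and Rag1 lower, where 0.641% and 0.21% of all features were. At 5 h Dntt was called lower, against 0.399% of all features. Dclre1c, the gene of ARTEMIS, a nuclease that opens the hairpin ends left by RAG, was 2.15-fold higher (2.0 to 2.30). Dntt, which encodes the terminal transferase that adds bases to heavy chain joints, went from 138 to 48.0 CPM, 2.87-fold lower (2.71 to 3.04). Rag1 went from 6.63 to 1.59 CPM at 1.5 h and 4.68 CPM at 5 h, with only 7.78% of its reads uniquely placed. Rag2 went from 7.27 to 3.74 CPM at 1.5 h, with only 20.1% of its reads uniquely placed, and was not called.

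Of 10 genes of nonsense-mediated decay, which removes transcripts of joints that are out of frame, 0 were called at any time. The list medians were 0.03, 0.09 and 0.10 on the log2 scale. Upf1, the helicase of the pathway, stood at 163 CPM in the control and 204 CPM at 5 h, and its kinase gene Smg1 at 348 and 446 CPM. The endonuclease gene Smg6 stood at 118 and 164 CPM.

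The cell type label was checked against marker genes. Of 16 pre-B markers 14 reached 1 CPM, led by Cd79a at a mean of 1518 CPM. Markers of mature B cells summed to 29.4 CPM in the control and 18.7 CPM at 5 h, mostly Cd22. The defining marker Ms4a1 had 0 reads. T and NK cell markers summed to 52.6 and 63.2 CPM, mostly Lck (36.1 and 42.2 CPM) and Klrb1c (16.3 and 19.6 CPM). Trac went from 0.0290 to 0.943 CPM, and Cd4 and Ncr1 had 0 reads. Plasma cell markers summed to 397 and 364 CPM, mostly Mzb1, myeloid markers to 72.9 and 39.6 CPM, mostly Itgam, and stromal markers to 0.869 and 1.2 CPM, with Col3a1 and Cxcl12 at 0. The myeloid and mature B sums were lower at 5 h, as was Igkc, and their part in the light chain values was not tested.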

How the data were processed

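Per the labels' protocols, libraries of poly(A) RNA were prepared with a kit named TruSeq or another named NEBNext, with no statement of which was used where, and were sequenced on a HiSeq 2500. The submitters' processing notes name CASAVA 1.8.2 and the build mm10. The aligner, counting program and strand setting were not given in the sources used here. Hence reads from antisense transcripts cannot be told apart. The 3 deposited tables, per the file headers, hold unnormalized counts of total and unique exon reads, gene reads and reads across exon junctions per lane, and a median coverage signal.

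The 16 samples were read as 4 lanes of 4 libraries and summed. Every count column was matched to a sample (0 unmatched), and control columns were identical across tables. CPM was computed from total exon reads, and RPKM as CPM per kb of exon model. Between lanes, the chi-square per degree of freedom of the Ighv5 segments was 2.16 to 4.83 in total exon reads and 0.777 to 1.39 in unique ones, over segments with at least 20 reads. Intervals of total reads are thus too narrow for this family. No molecular identifiers are named, and PCR reads are not independent molecules, so limits and intervals cover counting error only.

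A call was at least 2-fold on log2(CPM + 1), with 5 CPM or more in the higher library. Named were all constant and joining members with a read, the 15 V or D members with the highest mean CPM, called members, and up to 4 genes per list with the largest ratio. The values of 1 gene chosen by this rule are not reported here. The members and lists were chosen with earlier results of these data known. Coding sequences came from GENCODE vM21, in which all 252 members were matched by symbol. Alternatives were unique exon, total gene and unique gene reads, TMM factors (edgeR 4.0.16), DESeq2 1.42.0 size factors, other pseudocounts, floors and folds, and leaving out lanes, and unique gene reads were added after seeing the data. The calling script, not the calls themselves, was checked on simulated counts. Python 3.11.15, pandas 2.3.3, scipy 1.17.1 and R 4.3.3 were used.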

Additional observations from a re-analysis of the deposited data

How the results depend on the processing

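With 1 library per condition no replicate spread exists, and depth limits Iglc2, Iglv3 and single reads on most Igkv segments. The number of members called higher was 0 at each time. It became 1 at 0.5 h at 1.5-fold, and 2, 2 and 1 at 0.5, 1.5 and 5 h when a counting interval that excludes 1 was the rule. Leaving out 1 replicate (lane) in turn gave 0 to 1 at 0.5 h, where Ighv5-9 reached a log2 ratio of 1.14 without replicate 2. The number called lower, 0, 0 and 1, became 3, 6 and 6 under the interval rule, 1 at 1.5 h at 1.5-fold, and 0 at 5 h at 4-fold, with a pseudocount of 5 CPM or with a floor of 20 CPM. Leaving out 1 replicate in turn gave 0 to 1 at 5 h. The shares of all features under these other rules are not given here. The counts therefore show dependence on the rule and no trait of the members. For the Ighv5 segments the intervals of total reads are also too narrow. The log2 ratio of the Ighv sum at 0.5 h, -0.0655, was -0.0911 in unique exon reads and -0.0913 in unique gene reads, and at 5 h -0.23 became -0.20 in unique exon reads. Members with at least 1 CPM in the control, 16, became 69 at 0.1 CPM and 10 at 5 CPM, and 16 to 17 without 1 replicate. The Ighv sum stayed below the control at each time in all 11 alternatives, and the Igkv sum kept its direction at each time in all 11. Ighv5-4 was above the control in unique reads at 1.5 and 5 h (log2 ratios of 0.07 and 0.08). Combining ratios within lanes, as a replicate block, changed no call. The cause of these shifts was not tested.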
